A study of Canis lupus familiaris with 186 samples.

Results

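The genes described here are 8 genes that mark or maintain macrophages, AIF1, CD68, CSF1R, CSF1, TREM2, TYROBP, SPI1 and APOE, among the 37952 genes counted in primary canine osteosarcomas. They were chosen by gene name, and each of the 8 names matched 1 row of the count table. ACP5, the tartrate-resistant acid phosphatase of osteoclasts, is not one of the 8 and served as the osteoclast reference gene. The DOG2 dataset holds bulk mRNA sequencing of 186 primary tumors, with 1 tumor from each of 93 dogs in the trial COTC021 and 93 dogs in COTC022. The dogs were privately owned pets with spontaneous tumors, so no strain, transgene or cell line is shared between them. The labels give the trial of each dog and call the tissue tumor, and the age, the breed and the treatment arm of single dogs were not used here. The authors state that all tumors were sampled before treatment. Clusters of dogs, disease free interval and overall survival were not analysed here.

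Macrophages and osteoclasts both arise from the myeloid lineage, and osteoclasts form by fusion of precursors that depend on the cytokine CSF1 and its receptor CSF1R. The transcription factor SPI1, also called PU.1, is required for both cell types. TREM2 is a lipid-sensing receptor that signals through the adaptor TYROBP, also called DAP12, and APOE is a lipoprotein that macrophages secrete and that TREM2 can bind. AIF1 encodes Iba1, an actin-bundling protein used to stain macrophages, and CD68 encodes a lysosomal glycoprotein that is used as a macrophage stain and is also abundant in osteoclasts.

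In the build GSD_1.0, to which the counts refer, CSF1R lies at chr4:59895615-59925571, its ligand CSF1 at chr6:42485555-42505704 and SPI1 at chr18:42679725-42695395. TREM2 is at chr12:10104147-10108997, TYROBP at chr1:117603321-117606485 and APOE at chr1:111234400-111237204. AIF1 lies at chr12:1243086-1244917 and CD68 at chr5:32709456-32711701. All 8 are annotated as protein coding, and 0 genes of the RefSeq annotation overlapped any of them.

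The deposited values are RSEM expected counts, in which a read with several matching genes is shared out among them. None of the values of the 8 genes or of ACP5 needed rounding. Library totals lay between 6587631 and 27420857 around a median of 10797162. The column names of 50 libraries carry a doubled _ sign. Their median total was 19440449, against 9851681 in the other 136, and they are called the deeper libraries. The totals overlapped, from 15803906 to 23214323 in the 50 and from 6587631 to 27420857 in the other 136. What the mark in the name stands for is not given in the sources used here. Levels are given as CPM, counts scaled to a common library size, here after normalization with trimmed means (TMM). They are compared between tumors for 1 gene and not between genes, since no transcript lengths were used.

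In every tumor at least 10 reads were counted for 7 of the 8 genes. The exception was TREM2, with a median of 23 counts, fewer than 10 counts in 48 libraries and 0 in 2. Its low levels are therefore imprecise, and a count of 0 means only that it was not detected at this depth. All 8 genes passed the low-count filter, which kept 13422 genes.

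The ligand CSF1 had the smallest spread of the 8, and its receptor CSF1R and SPI1 spread about equally. CSF1 ranged from 8.59 to 305 CPM in COTC021, with a median of 85.9, and from 17.8 to 382 CPM in COTC022, with a median of 84.5. CSF1R ranged from 18.6 to 602 CPM in COTC021, with a median of 255, and from 17.2 to 849.7 CPM in COTC022, with a median of 247. The 2 trials overlapped over nearly the whole range of both genes. SPI1 spanned 5.59 to 135 CPM around a median of 45.6 in COTC021 and 2.6 to 159.7 CPM around a median of 45.8 in COTC022. The standard deviation (SD) of log2 CPM over all 186 tumors was 0.94 for CSF1, 1.14 for CSF1R and 1.14 for SPI1.

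The receptor TREM2 and its adaptor TYROBP differed in how far they spread. TYROBP ranged from 7.38 to 239 CPM in COTC021, with a median of 47.1, and from 5.88 to 233 CPM in COTC022, with a median of 56.7. TREM2 ranged from 0 to 12.3 CPM in COTC021, with a median of 1.87, and from 0 to 39.8 CPM in COTC022, with a median of 1.68. The trials overlapped for both genes, and 1 tumor of COTC022 stood above all others for TREM2. APOE ranged from 3.24 to 3211 CPM in COTC021, with a median of 115, and from 11.9 to 746 CPM in COTC022, with a median of 102. Its highest tumor was 991-fold above its lowest. The SD of log2 CPM was 1.07 for TYROBP, 1.45 for TREM2 and 1.62 for APOE.

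The macrophage gene AIF1 ranged from 3.58 to 159.8 CPM in COTC021, with a median of 14.6, and from 1.71 to 188 CPM in COTC022, with a median of 18.4. CD68 ranged from 6.18 to 1027 CPM in COTC021, with a median of 228, and from 8.21 to 1119 CPM in COTC022, with a median of 215. The trials overlapped over most of the range of both genes, but the tumors lowest in AIF1, below 3.58 CPM, were all of COTC022. The SD of log2 CPM was 1.31 for AIF1 and 1.65 for CD68, which had the largest spread of the 8. All 8 genes varied more than the median gene tested, whose SD was 0.62, and exceeded between 74.1% of genes for CSF1 and 93.7% for CD68. ACP5 varied more than any of them, with an SD of 2.46, a median of 1524 CPM and a lowest tumor at 1.78 CPM. In bulk tissue, a lower level from fewer cells of a type and one from less RNA per cell cannot be told apart.

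**Figure D1:**
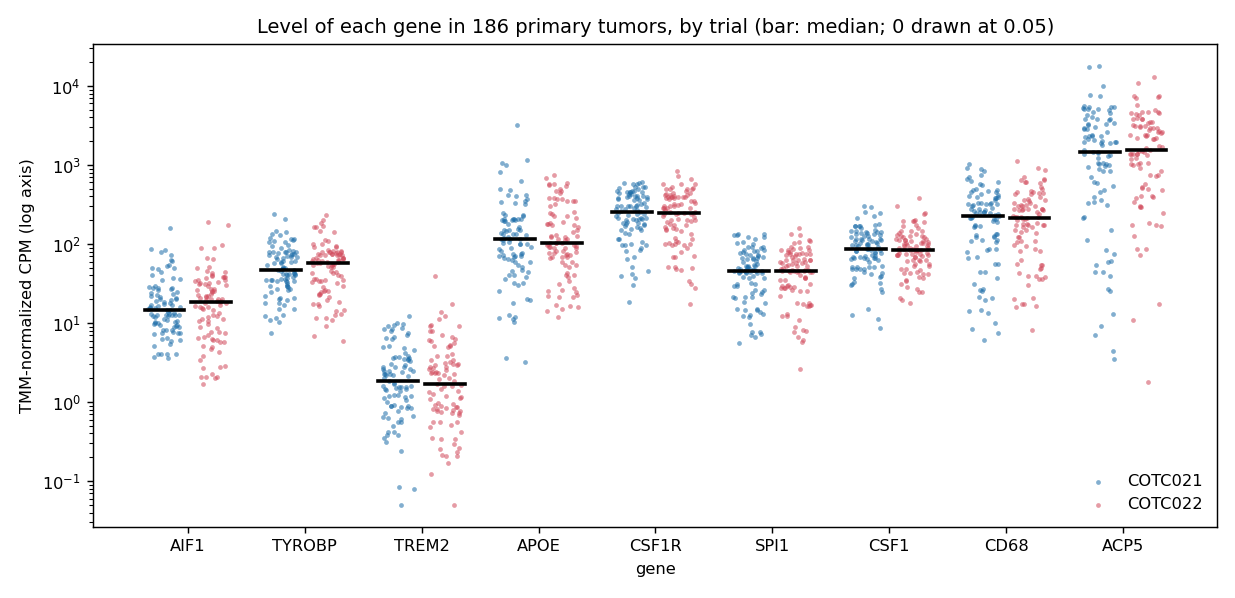
Level of each of the 8 genes and of ACP5 in every tumor, as TMM-normalized CPM on a log axis, with COTC021 in blue, COTC022 in red and a black bar at the median. The 2 trials overlap for every gene, and the 2 libraries with 0 counts for TREM2 are drawn at 0.05.

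None of the 8 genes differed between the trials by limma-voom, a linear model of log2 CPM that weights each count by its precision. The log2 difference, COTC022 minus COTC021, ran from -0.09 for TREM2 to 0.08 for CD68, with Benjamini-Hochberg adjusted p from 0.91 to 0.988. For comparison, 0.0149% of all genes tested were called, which is 2 genes, and 1332 had an unadjusted p under 0.05. Of the 8 genes, CD68 had the widest 95% interval of the difference, from -0.40 to 0.55, and CSF1 the narrowest, from -0.26 to 0.28. Differences within these intervals remain compatible with the data. edgeR called 129 genes and DESeq2 called 91, and none of the 8 was among them. The sign of 5 of the 8 differences changed with edgeR and with DESeq2, so no direction can be given. Between the deeper libraries and the other 136, a comparison added after the data were seen, none of the 8 was called either, with log2 differences from -0.23 for TYROBP to 0.13 for CSF1R, while 4.27% of all genes were called.

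The 28 correlations among the 8 genes were all positive, both over the 186 tumors and in either trial or library group alone. They fell into tighter and looser sets. CSF1R and SPI1 had a Pearson r of 0.922 and a Spearman rho of 0.901, each with a permutation p of 1e-05, the smallest that 100000 permutations can give. TYROBP and SPI1 had an r of 0.908 and a rho of 0.898, and CSF1R and TYROBP an r of 0.855 and a rho of 0.837, both at that same smallest p. CD68 correlated with SPI1 at an r of 0.885, with CSF1R at 0.834, with CSF1 at 0.773 and with TYROBP at 0.736. CSF1R, SPI1 and TYROBP thus moved together closely, and CD68 was by r nearer to SPI1 and CSF1R than to TYROBP. The correlations of CD68 with AIF1 and with TREM2 were among the weakest.

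The ligand CSF1 and its receptor CSF1R had an r of 0.767, with 0.748 after the 2 most distant libraries were left out. Within groups it lay between 0.76 and 0.792. TREM2 and its adaptor TYROBP had an r of 0.571, from 0.505 in COTC021 to 0.644 in the deeper libraries. TREM2 and its ligand APOE had an r of 0.565. By the size of r, TREM2 was closer to AIF1, at 0.711, than to either partner, though the differences between these correlations were not tested. Of the 28 correlations, 16 had an r over 0.5. Of the 36 relations computed, the 28 and the 8 with ACP5, 26 had the smallest permutation p by both r and rho.

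**Figure D2:**
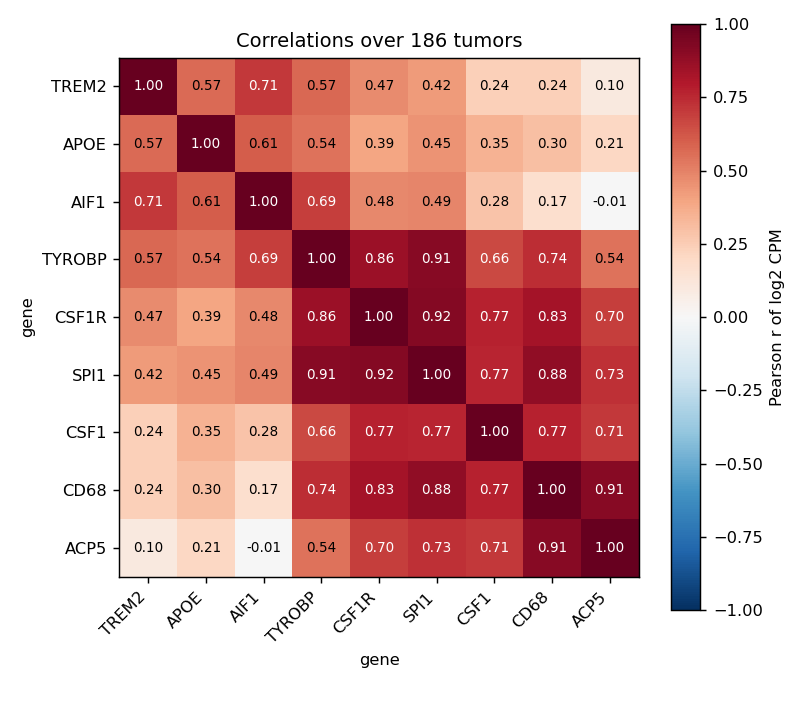
Pearson correlation of log2 CPM over 186 tumors between each pair of the 8 genes and ACP5, from -1 in blue to 1 in red. TYROBP, CSF1R, SPI1, CSF1 and CD68 form a block, TREM2, APOE, AIF1 and TYROBP a looser one, and ACP5 joins CD68 at 0.91 and AIF1 at -0.01.

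No correlation between AIF1 and ACP5 was detected. Their r was -0.007 with a permutation p of 0.918, and their rho was -0.05 with a permutation p of 0.501. Within groups the lowest r was -0.128, in the deeper libraries, and the highest 0.032, in the remaining 136. The pair was used as separate axes against which the other 7 genes were set.

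AIF1 was followed by all 7 of the other genes, but to very different extents. With the trial as a term, limma-voom called 7 of 7 positive against a background of 21.2% of all genes called in that direction. A positive association was thus common among genes, and the sizes carry more than the count. TREM2 rose by 0.88 ± 0.06 (SE, n = 186) on the log2 scale for each doubling of AIF1, with an adjusted p of 9.94e-31 by limma-voom. APOE rose by 0.76 ± 0.07 and TYROBP by 0.58 ± 0.04 per doubling. SPI1 rose by 0.43 ± 0.06, CSF1R by 0.41 ± 0.06 and CSF1 by 0.20 ± 0.05.

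CD68 had a slope on AIF1 of 0.22 ± 0.09 per doubling, with an adjusted p of 0.0421 by limma-voom. This call was lost in 6 of 10 alternatives, and edgeR gave a slope of 0.07 with an adjusted p of 0.491. The correlation between CD68 and AIF1 was weak too, with an r of 0.171 and a permutation p of 0.0192, and a rho of 0.133 with a permutation p of 0.0689. Ranked by r among 13421 genes, CD68 stood at place 2782 for AIF1, whereas TREM2 stood at 206 and TYROBP at 221. AIF1 alone accounted for 2.93% of the variance of CD68, against 50.5% for TREM2, 48.3% for TYROBP and 36.7% for APOE. With ACP5 and the trial taken out, the r between AIF1 and CD68 was 0.431, against 0.715 between AIF1 and TREM2. The slope of CSF1 was no longer called within COTC021, with an adjusted p of 0.0981, or in the deeper libraries, with 0.0764.

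ACP5 was followed most closely by CD68. CD68 rose by 0.64 ± 0.02 (SE, n = 186) on the log2 scale for each doubling of ACP5, with an adjusted p of 1.76e-64 by limma-voom, and stood at place 4 of 13421 genes when ordered by the slope over its error. The r between CD68 and ACP5 was 0.91 and the rho was 0.907, each with a permutation p of 1e-05, and r within groups lay between 0.846 and 0.929. ACP5 alone accounted for 82.8% of the variance of CD68.

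SPI1 rose by 0.36 ± 0.03 per doubling of ACP5, CSF1R by 0.32 ± 0.02, CSF1 by 0.28 ± 0.02 and TYROBP by 0.24 ± 0.03, all called. ACP5 accounted for 53.6% of the variance of SPI1, 50.3% for CSF1 and 48.3% for CSF1R, but 29.3% for TYROBP. In all, 6 of 7 genes were called positive, against 14.6% of all genes tested. TREM2 was not called, with a slope of 0.04 ± 0.05 and an adjusted p of 0.584. The slope of APOE was 0.13 ± 0.05, with an adjusted p of 0.0241, and lost its call in 5 of 10 alternatives. In the deeper libraries the slope of APOE was -0.06 with an adjusted p of 0.763 and that of TYROBP, at 0.19, was not called, with an adjusted p of 0.0677.

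**Figure D3:**
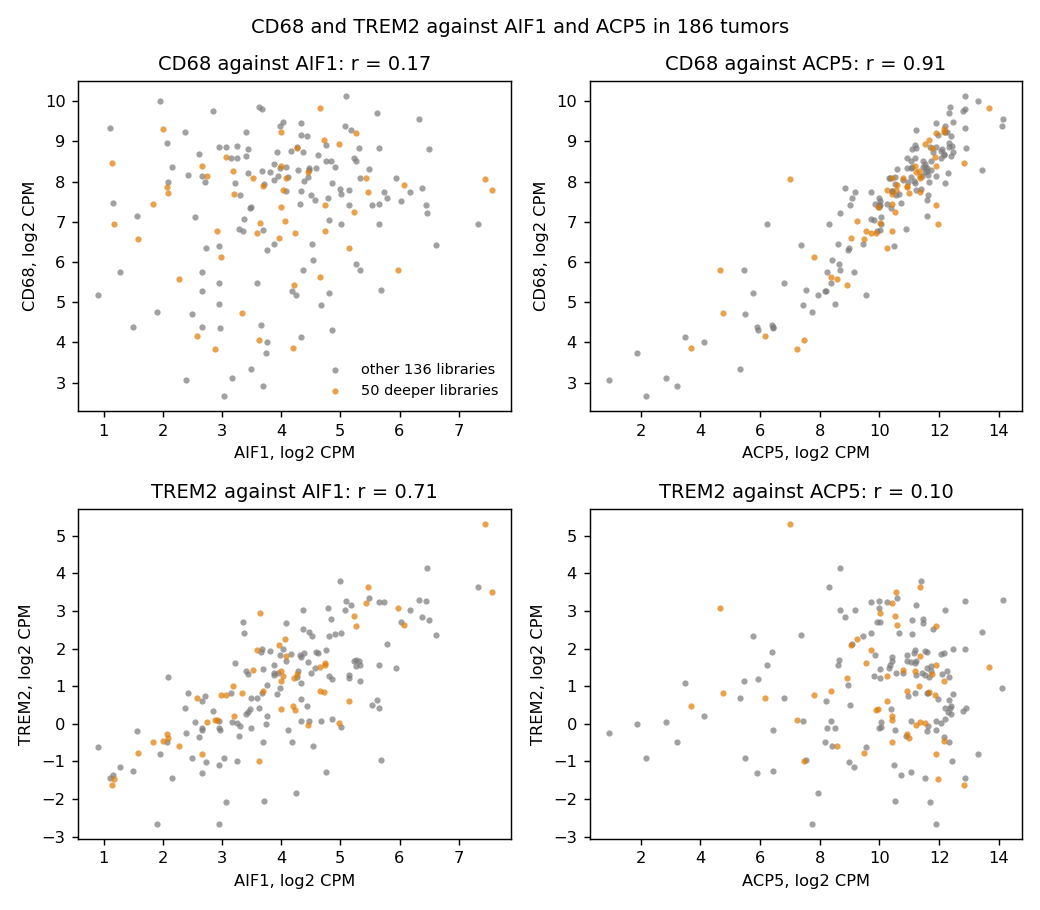
CD68 in the upper panels and TREM2 in the lower panels against AIF1 on the left and ACP5 on the right, in log2 CPM, with 1 point for each of 186 tumors and the deeper libraries in orange. CD68 rises along ACP5 at r = 0.91 and is scattered along AIF1 at r = 0.17, while TREM2 rises along AIF1 at r = 0.71 and is scattered along ACP5 at r = 0.10.

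To ask which reference gene each of the 7 followed more, both were put in 1 model, and the slope on ACP5 was subtracted from the slope on AIF1. Each slope is the log2 change of a gene per SD of the reference gene with the other held fixed. CD68 rose by 0.32 per SD of AIF1 and 1.60 per SD of ACP5, and the difference was -1.28 ± 0.07 (SE, n = 186), with an adjusted p of 3.79e-43 by limma-voom. TREM2 rose by 1.16 per SD of AIF1 and had a slope of 0.10 on ACP5, with an adjusted p of 0.391 by limma-voom, and the difference was 1.05 ± 0.12, with an adjusted p of 4.01e-14 by limma-voom. For APOE the slopes were 1.00 and 0.33 and the difference was 0.66 ± 0.13, with an adjusted p of 1.22e-05 by limma-voom. These 3 calls were kept in 11 of 11 alternatives, CD68 on the side of ACP5 and TREM2 and APOE on the side of AIF1.

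The other 4 genes lay between the axes. All 4 rose along both in the joint model, in which 21.7% of all genes rose with AIF1 and 15.1% with ACP5. This did not set them apart from CD68 and APOE, which rose along both too. The adjusted p by limma-voom was 2.3e-10 for CD68 on AIF1 and 0.00298 for APOE on ACP5. SPI1 had slopes of 0.55 on AIF1 and 0.89 on ACP5, CSF1R of 0.55 and 0.81, and CSF1 of 0.27 and 0.69. Their differences were -0.34, -0.26 and -0.42, each called on the side of ACP5. TYROBP had slopes of 0.75 and 0.61, and its difference of 0.14 ± 0.05 was called on the side of AIF1, with an adjusted p of 0.0317 by limma-voom. Among all genes tested, 17.6% were called on the side of AIF1 and 16.9% on that of ACP5.

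The side of these 4 depended on how they were compared. ACP5 has the larger SD, and in an alternative chosen after the data were seen the slopes were taken per doubling instead of per SD. The difference was then 0.09 for CSF1R, called on the side of AIF1 with an adjusted p of 0.0477 by limma-voom, 0.06 for SPI1 with an adjusted p of 0.173, and -0.07 for CSF1 with an adjusted p of 0.128. In the deeper libraries the differences of CSF1R, CSF1 and SPI1 were not called, with adjusted p of 0.642, 0.415 and 0.23. With C1QA and CTSK, a complement gene of macrophages and a collagen-degrading protease of osteoclasts, in place of AIF1 and ACP5, TYROBP was called on the side of the osteoclast gene, at -0.24 with an adjusted p of 0.000545. TYROBP also lost its call within COTC021, at 0.03, without the 2 most distant libraries, at 0.09, in the deeper libraries, at 0.27, and in the remaining 136, at 0.10. Its call on the side of AIF1 was thus kept in 6 of 11 alternatives.

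**Figure D4:**
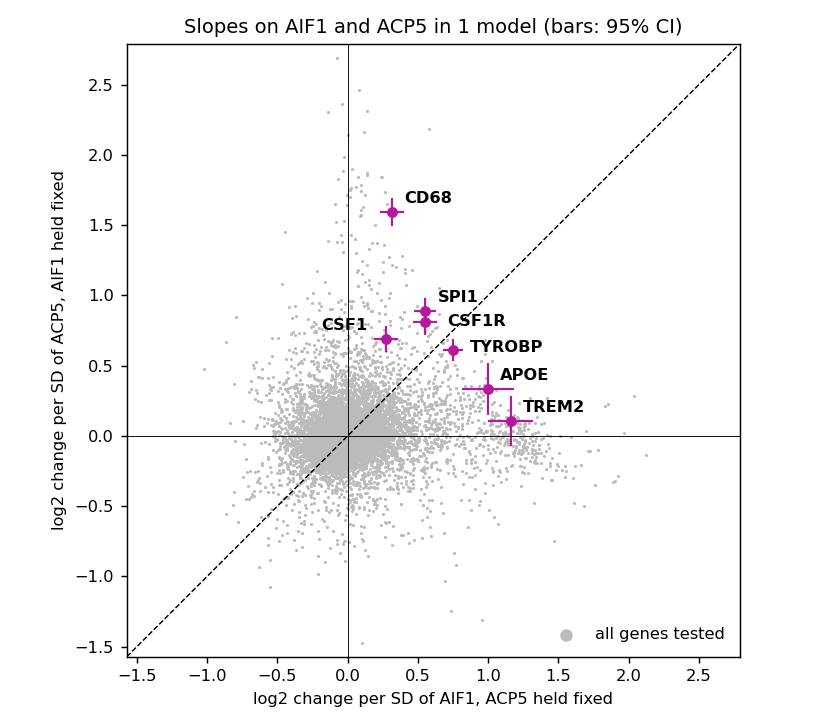
Log2 change per SD of AIF1 on the x axis and per SD of ACP5 on the y axis from 1 model, for all genes tested in grey and 7 genes in purple with 95% intervals, and with a dashed line where both slopes are equal. CD68 lies far above the line at 0.32 and 1.60, TREM2 and APOE below it, and TYROBP, SPI1, CSF1R and CSF1 nearer to it.

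With C1QA and CTSK as references, AIF1 and ACP5 themselves could be tested. AIF1 rose by 1.09 per SD of C1QA and had a slope of 0.12 on CTSK, with an adjusted p of 0.0936. ACP5 rose by 2.15 per SD of CTSK and had a slope of -0.16 on C1QA, with an adjusted p of 0.178. The other 7 genes were called positive for both references in this model. The share of all genes called for each reference was not computed, so nothing is read from this count. CD68 rose by 1.56 per SD of CTSK and by 0.12 per SD of C1QA, and TREM2 by 1.00 per SD of C1QA and by 0.30 per SD of CTSK.

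Together AIF1 and ACP5 accounted for 86.0% of the variance of CD68, 78.2% for SPI1, 78.2% for TYROBP and 71.7% for CSF1R. They accounted for 58.7% for CSF1, 51.6% for TREM2 and 41.1% for APOE. The share of its own variance that neither reference gene carried was thus largest for these 3. After AIF1, ACP5 and the trial were taken out, TYROBP and SPI1 still had an r of 0.756, CD68 and SPI1 of 0.742 and CSF1R and SPI1 of 0.688. Between CSF1 and CSF1R the remaining r was 0.384. Between TREM2 and TYROBP it was 0.062, and between TREM2 and APOE 0.211. The receptor TREM2 and its adaptor thus shared little beyond what both shared with AIF1 and ACP5, although the low counts of TREM2 limit any such remainder.

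The correlations held within the trials and groups of libraries for most of the 7 genes. The r between AIF1 and TREM2 was 0.673 and 0.738 within COTC021 and COTC022, and 0.825 and 0.671 within the deeper and the remaining libraries. Between AIF1 and APOE it lay between 0.573 and 0.668. The r of ACP5 with TREM2 was -0.142 among the deeper libraries but 0.169 among the remaining 136, and with APOE it was -0.062 and 0.264. The difference in slope between these groups, a test added after the data were seen, had an adjusted p of 0.732 for TREM2 and 0.725 for APOE by limma-voom, which called 0% of all genes. Between the trials, 0% of genes differed in their slope on AIF1 or on ACP5 by limma-voom, with 510 and 530 genes at an unadjusted p under 0.05. Among the 7 genes, APOE had the lowest such p for AIF1, at 0.0051 before adjustment and 1 after it.

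**Figure D5:**
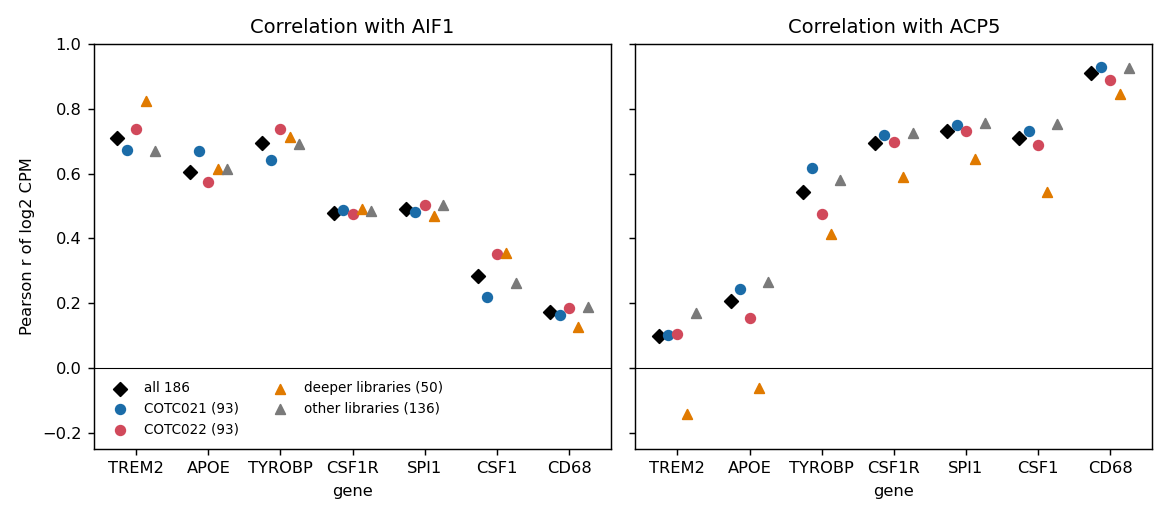
Pearson r of log2 CPM of each of 7 genes with AIF1 on the left and with ACP5 on the right, over all 186 tumors and for the trials and library groups alone. TREM2 and APOE are high on the left and low on the right, CD68 is the reverse, and for ACP5 the deeper libraries fall below 0 for TREM2 and APOE.

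The genes most like each of the 8 were taken by r over the 186 tumors. For AIF1 they were LST1 at 0.94, CTSS at 0.936, CD53 at 0.93, IGSF6 at 0.923 and CD37 at 0.91. LST1 lies 18154 bp from AIF1 on chr12. For CD68 they were CD84 at 0.977, PTPN22 at 0.951, TCIRG1 at 0.95, CTSK at 0.945 and MATK at 0.938. TCIRG1 is a subunit of the osteoclast proton pump. With an r of only 0.171 between AIF1 and CD68, no gene could have stood in both lists. That the lists differ therefore adds nothing to that r.

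For CSF1R the nearest were CYTH4 at 0.933, SPI1 at 0.922 and FERMT3 at 0.917. For SPI1 they were SYK at 0.941, a kinase that acts downstream of TYROBP, FERMT3 at 0.937 and LAT2 at 0.926. TYROBP was nearest to LRRC25 at 0.933, LAPTM5 at 0.928 and SPI1 at 0.908. SPI1 was thus among the 3 nearest genes of both CSF1R and TYROBP.

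The nearest genes of CSF1 were CD68 at 0.773, its own receptor CSF1R at 0.767 and CD84 at 0.767. TREM2 was nearest to VSIG4 at 0.791, a complement receptor of tissue macrophages, GPNMB at 0.772 and TBXAS1 at 0.767. APOE was nearest to APOC1 at 0.716, another apolipoprotein that lies 3149 bp away on chr1, CLEC12A at 0.685 and TMEM144 at 0.655. The values for CSF1, TREM2 and APOE were lower than those of the other 5.

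The wider pathways were read from lists of genes. Their counts are to be read against all genes tested, of which 21.2% rose with AIF1 and 14.6% with ACP5, and 17.6% were called on the side of AIF1 and 16.9% on that of ACP5. One list of 6 genes held CSF1, CSF1R and IL34 and also CSF2RA, CSF2RB and CSF3R, which are not part of the CSF1 receptor axis. Of these 6, 6 rose with AIF1 and 4 rose with ACP5. The median slopes were 0.49 and 0.17 per doubling, against -0.01 and -0.01 over all genes. Without CSF1 and CSF1R, 4 of 4 rose with AIF1 and 2 of 4 with ACP5. In the joint model CSF1 and CSF1R were the 2 called on the side of ACP5, and CSF2RA, CSF2RB and CSF3R, receptors for other colony-stimulating factors, the 3 called on that of AIF1. The difference was 1.15 for CSF2RA and 1.26 for CSF3R. IL34, the second ligand of CSF1R, had a difference of -0.16 with an adjusted p of 0.247 by limma-voom.

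Besides TREM2 and TYROBP themselves, 7 genes of their signalling were tested, of which 6 rose with AIF1, against 21.2% of all genes, and 5 with ACP5, against 14.6%. Of the 7, 5 were called on the side of AIF1, against 17.6%, and 0 on that of ACP5. TREM1, another receptor that uses TYROBP, had a difference of 1.33, and the exchange factor VAV1 one of 0.67. SYK had a difference of -0.15 with an adjusted p of 0.0817, and PLCG2 one of 0.01 with an adjusted p of 0.916, both by limma-voom.

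Among 9 myeloid transcription factors besides SPI1, 5 were called on the side of AIF1, against 17.6% of all genes, and 1 on that of ACP5, a share near the 16.9% of all genes. IRF8, needed for monocytes and dendritic cells, had a difference of 1.36 and CEBPA one of 0.73. The 1 on the side of ACP5 was NFATC1, the master regulator of osteoclast formation, at -0.25, beside -0.34 for SPI1. MITF had a difference of -0.15 with an adjusted p of 0.118 by limma-voom.

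Of 10 genes of lipid handling besides APOE, 7 were called on the side of AIF1, against 17.6% of all genes, and 1, NPC2 at -0.26, on that of ACP5. APOC1 had a difference of 1.28, GPNMB of 1.11, and the lysosomal lipase LIPA and APOE of 0.67 and 0.66. NR1H3, the liver X receptor that drives APOE transcription in macrophages, had a difference of -0.16 with an adjusted p of 0.0736 by limma-voom, and LPL one of -0.11 with an adjusted p of 0.482.

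Markers of cell types moved along the same axes. Of 10 macrophage markers, 10 rose with AIF1, with a median slope of 0.93 per doubling, and 9 were called on the side of AIF1 in the joint model. CD163, a scavenger receptor for haemoglobin, had a difference of 1.44. The exception was CD14, which had slopes of 0.55 on AIF1 and 0.84 on ACP5, and was called on the side of ACP5 at -0.29. Of 9 osteoclast markers tested besides ACP5, 9 rose with ACP5, and all 9 were called on its side, from -0.92 for TNFRSF11A to -2.77 for MMP9.

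AIF1 also rose and fell with markers of other cells. The 3 T cell markers tested rose with it, CD3E by 1.19, CD2 by 1.04 and CD3G by 0.94 per doubling, and so did 5 of 5 tested neutrophil and monocyte markers and 2 of 3 muscle markers. Of 5 osteoblast markers, 4 fell, against 24.2% of all genes, with slopes from -0.65 for ALPL to -0.26 for RUNX2. With ACP5, 0 of the 3 T cell markers and 5 of 5 osteoblast markers rose. In the joint model all 3 T cell markers were called on the side of AIF1, against 17.6% of all genes. Their median difference was 1.46, beside 1.26 for the macrophage markers, so this side was not particular to macrophage genes. The 5 neutrophil and monocyte markers were called on that side too, and the 5 osteoblast markers on that of ACP5, against 16.9%. The part of these cells in the associations of the 8 genes was not tested. None of the 4 B cell markers and 2 fat markers passed the low-count filter.

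GS-1 is a gene signature from an earlier study of canine osteosarcoma, used here in the shortened form of 27 genes that the authors kept after their low-count filter. None of the 8 genes is among these 27, and the genes left out of the signature were not checked. The 27 do include macrophage markers, among them VSIG4, the gene nearest to TREM2. Only 8 of the 10 macrophage markers could therefore be tested against the score. The score is thus not independent of macrophage genes. The mean z-score of these 27 genes was used as a graded measure, with no grouping of the dogs. All 8 genes rose with it, against 22.6% of all genes called in that direction. AIF1 rose by 1.17 ± 0.04 (SE, n = 186) on the log2 scale per SD of the score, with an adjusted p of 3.45e-69 by limma-voom. TREM2 rose by 1.02 ± 0.07, APOE by 1.00 ± 0.10, TYROBP by 0.75 ± 0.06, CSF1R by 0.67 ± 0.07, SPI1 by 0.62 ± 0.07 and CSF1 by 0.33 ± 0.06.

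CD68 rose by 0.42 ± 0.12 per SD of the score, with an adjusted p of 0.00199 by limma-voom. Its call was lost with edgeR, at 0.20 with an adjusted p of 0.14, within COTC021, with 0.0801, and in the deeper libraries, with 0.338. ACP5 had a slope of 0.14 ± 0.18 with an adjusted p of 0.531. All 27 GS-1 genes rose with AIF1, against 21.2% of all genes, so the slopes on the score are not independent of those on AIF1. With ACP5, 3 of 27 rose and 2 fell, and the 3 are a share near the 14.6% of all genes. The 3 T cell markers also rose with the score, with a median slope of 1.69.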

How the data were processed

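Frozen primary tumors were sequenced from TruSeq Stranded mRNA libraries on a NovaSeq. Per the labels, the authors used bcl2fastq, cutadapt, STAR 2.7.0f and RSEM 1.3.1. They deposited expected counts per gene, not normalized, for build GSD_1.0; the strand setting of the counting is not given in the sources used here. The values were rounded, and 3.07% had not been whole. Of 198 columns, 12 matched no sample given here and were not used. No 2 libraries were identical.

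Genes passed filterByExpr of edgeR at a min.count of 10, a min.prop of 0.5 and a large.n of 5. After TMM normalization, slopes were estimated by voom of limma 3.58.1, run in R 4.3.3, with the trial as a term. Benjamini-Hochberg adjustment ran over all genes tested, with calls at an adjusted p under 0.05. All tests were two-sided. Alternatives used edgeR 4.0.16 (quasi-likelihood) and DESeq2 1.42.0, other size factors, no filter, the library name as a covariate, single trials and other reference genes. The alternatives within groups of libraries and per doubling, and the comparisons by library name, were added after the data were seen. Correlations used log2 CPM with a prior count of 2, Python 3.11.15, scipy 1.17.1 and 100000 permutations. Figures used matplotlib 3.10.9.

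On data simulated from these libraries with slopes of 1, the fit called 100 of 100 changed genes for AIF1 and 98 of 98 for ACP5. For the difference between AIF1 and ACP5 it called 93 of 99, and 81 of 100 with a difference of 0.5. Of the unchanged genes, 11, 5 and 11 of about 13380 were called. Each gene was simulated independently of the others, so these counts do not show how many calls arise among genes that vary together.

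The 8 genes and the lists were chosen with earlier results of these data known. The genes named are the 8, ACP5, the listed genes, and the genes with the highest r, 5 each for AIF1 and CD68 and 3 each for the others, without LOC names. No sequence of these genes was printed. P-values measure the spread between dogs. Counting error falls with depth, and the libraries called deeper had the higher median total, not the highest single one.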

Additional observations from a re-analysis of the deposited data

How the results depend on the processing

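Over all results, the alternatives changed no call of TREM2, APOE or CD68 in the difference between AIF1 and ACP5, and the slopes of TREM2, TYROBP, APOE, SPI1 and CSF1R on AIF1 and of CD68, SPI1, CSF1R and CSF1 on ACP5 were called in each of 10 alternatives. Of the values for single genes, 321 kept their direction and side of the threshold, 24 kept the direction but lost the call, and 25 changed sign. The cause of these changes was not tested. No paired analysis was possible because each dog gave 1 tumor.

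The number of genes associated with AIF1 fell from 6089 to 3127 within COTC021 and 2303 in the 50 deeper libraries. For ACP5 it fell from 4097 to 2016 within COTC021, 1874 within COTC022 and 704 in the deeper libraries. Genes called for the difference between AIF1 and ACP5 numbered 4630, and 2326 within COTC021, 3042 within COTC022, 1874 in the deeper libraries and 2819 with C1QA and CTSK. For the GS-1 score the number was 6616, and 3612 within COTC021 and 3248 in the deeper libraries. For the trial comparison it was 2, and 129 with edgeR, 91 with DESeq2, 0 among the deeper libraries and 8 among the remaining 136. The r between ACP5 and AIF1 was 0.014 without TMM.

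Signs that changed were, for the difference between AIF1 and ACP5, TYROBP at -0.24 with C1QA and CTSK, and CSF1R at 0.091 and SPI1 at 0.058 per doubling. For the slope on ACP5 they were TREM2 at -0.11 and APOE at -0.064 in the deeper libraries and AIF1 at 0.016 in the other 136. The trial difference of the slope of AIF1 on ACP5 was 0.004 with the library name as a covariate. In the trial comparison, none of which was called, edgeR gave 0.174 for AIF1, -0.039 for CD68, -0.019 for CSF1, 0.215 for TREM2 and -0.278 for APOE, and DESeq2 gave 0.166, -0.045, -0.025, 0.207 and -0.282. The deeper libraries gave 0.39 for AIF1, 0.39 for CSF1R, 0.082 for TREM2 and 0.41 for SPI1, and the other 136 gave -0.048 for CD68, -0.102 for CSF1, -0.084 for TYROBP and -0.075 for APOE.

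Depth limits TREM2 most, since 48 libraries hold fewer than 10 of its counts.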
